A study of Homo sapiens with 6 samples.

Results

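The genes described here encode the proteasome: the subunits of its core particle, its regulatory particle, its activators and inhibitor, and the factors that assemble it. They were chosen by symbol, as every row of the deposited RNA-seq table whose symbol is PSMA to PSMG followed by a number, plus POMP. The rule found 49 of 12499 genes. Of these, 47 are parts of the proteasome or its assembly factors. The other two, PSMC3IP and PSME3IP1, encode proteins named for binding a proteasome subunit or activator and are given apart. The 5 genes of the immunoproteasome, PSMB8, PSMB9, PSMB10, PSME1 and PSME2, were set apart from the other 42.

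The libraries came from HaCaT, an established line of human keratinocytes, infected with lentivirus for 48 hours and then kept for 24 hours in high glucose (HG, 25 mM). In 3 libraries the virus was labeled LV-ATF7, which per the study's methods carries the ATF7 coding sequence in the pLVX-IRES-Puro vector, and in the other 3 it was LV-NC, a control lentivirus. Both groups therefore shared the infection and the HG medium, and no library without infection or without HG is part of the comparison. HaCaT is a single line, and nothing states that the replicates were separate cultures, so p-values measure the spread between these libraries, which may be technical.

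The proteasome is the protease that degrades most ubiquitin-tagged proteins in the cytosol and nucleus. Its barrel-shaped core is built of outer α rings and inner β rings, and 3 of the β subunits carry the catalytic sites. A regulatory particle, made of a base with an ATPase ring and a lid, caps the barrel, binds ubiquitin chains, removes them and unfolds the substrate. After exposure to interferon-γ, cells replace the constitutive catalytic subunits PSMB5, PSMB6 and PSMB7 with PSMB8, PSMB9 and PSMB10 in newly built cores, and PSME1 and PSME2 form the PA28 cap. This immunoproteasome changes which peptides are cut and is best known for supplying peptides to MHC class I molecules.

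Total counts ran from 16686472 to 20562768 per library, and all 49 genes passed the expression filter. Levels are given as CPM, counts scaled with the TMM method to a common library total. ATF7 itself stood at 50.6, 46.4 and 52.2 CPM across the LV-NC replicates and at 21.9, 25.7 and 28.0 CPM where the label was LV-ATF7. It was lower in every library labeled as carrying it, against its label (log2 fold change -0.98 ± 0.12 (SE), adjusted p = 1.89e-04). Whether the labels are exchanged, which would turn every direction given here, or the counts leave out the transgene was not tested. Among the LV-NC libraries replicate 1 stood apart, with a chi-square per gene of 74.6 and 66.9 against its partners and 3.69 between those. Counts of genes called are therefore given with and without it. All 8 keratinocyte markers had a row, with summed levels of 1664 to 2066 CPM in the LV-NC libraries and 7536 to 7922 CPM in those labeled LV-ATF7, most of it KRT5 and EGFR in the latter. The list was split, with 5 markers higher, 1 (KRT14) lower and 2 (KRT17 and CDH1) not called. KRT14, a defining keratinocyte keratin, did not exceed 12.5 CPM in any library, and TP63 was at 12.6 to 18.3 CPM in the LV-NC libraries and 219 to 238 CPM in the others. The markers of other cells also differed. Of 6 blood cell markers, CD14 had a row, at 1.51 to 1.73 and 7.09 to 9.57 CPM. The 2 endothelial markers with a row, of 3, summed to 1.12 to 5.499 and 84.6 to 89.9 CPM, most of it CDH5. The 2 of 5 fibroblast markers summed to 33.1 to 42.7 and 17.3 to 21.7 CPM, with COL1A1 lower (log2 fold change -1.13) and DCN, at 2.24, not called. The part of these differences in the proteasome results was not tested. In bulk RNA, fewer cells of a type and less RNA per cell cannot be told apart.

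The immunoproteasome genes were higher in one group of libraries, and most of the rest of the proteasome was higher in the other. All 5 immunoproteasome genes were higher in the libraries labeled LV-ATF7, with a median log2 fold change of 1.30. Of the other 42 genes, 28 were lower, 3 were higher (PSMD9, PSMG4 and PSMG3) and 11 did not pass the test, and their median was -0.64. The test was edgeR's quasi-likelihood test on the counts of all 12462 genes that passed the filter, with Benjamini-Hochberg adjusted p-values under 0.05. In that test 67.6% of all genes were called, 34.7% as higher and 32.9% as lower, and the log2 fold changes over all genes had a median near 0, so a call by itself sets no gene apart here. Sign was less evenly divided than among all genes: 38 of the 42 had a negative log2 fold change, compared with 6229 of the 12462. Direction was kept by 46 of the 47 genes under each of 14 alternative fits, the exception being PSMB5, whose sign changed under 3 of them.

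The groups did not overlap, every library of one lying beyond every library of the other, for 36 of the 47 genes, 8 of them higher and 28 lower. Over all genes tested these shares were 38.0% higher and 34.7% lower. The calls and the separation do not name exactly the same genes. PSMB3 and PSME3 were called lower although LV-NC replicate 1 fell within the range of the other group, and PSMA2 and PSMF1 did not overlap but were not called. With a fold change of at least 1.5 required as well, 6 genes were higher and 23 were lower, where 28.2% of all genes were higher and 24.6% lower by the same rule.

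**Figure D1:**
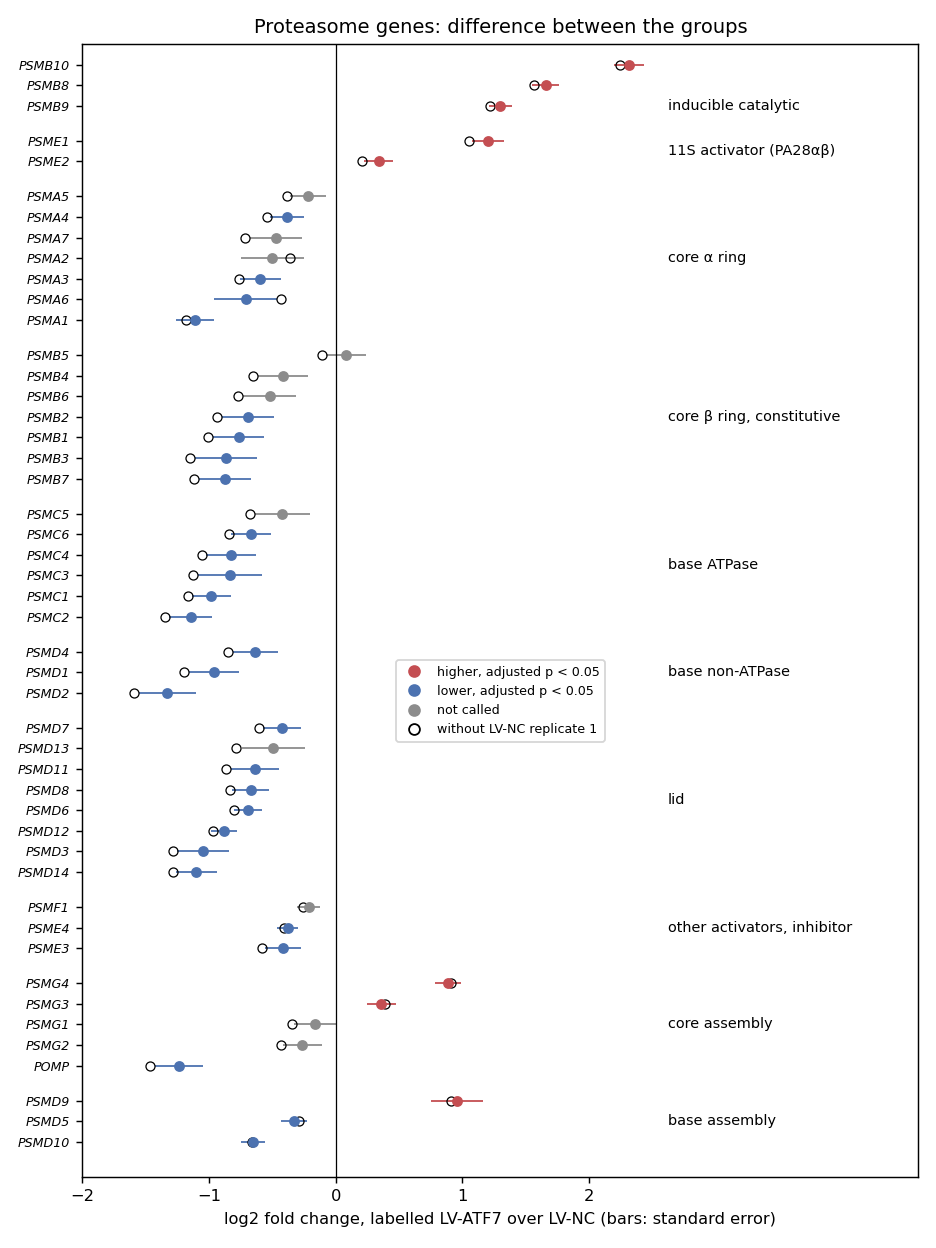
Log2 fold change of each of the 47 proteasome genes, libraries labeled LV-ATF7 over LV-NC (filled points, with the standard error as bars; n = 3 libraries per group), by structural group, with the value from 5 libraries, without LV-NC replicate 1, as open circles. The 5 immunoproteasome genes lie right of 0, from 0.34 to 2.32, and most subunits of the core, base and lid lie left of it and further left in the open circles.

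Without LV-NC replicate 1, 37 of the 42 other genes were lower, 3 were higher and 2 (PSMA2 and PSMB5) were not called, and their median log2 fold change was -0.78. The 5 immunoproteasome genes remained higher, from 0.21 for PSME2 to 2.25 for PSMB10, with a median of 1.22. In that fit 39.9% of all genes were called higher and 40.2% lower. The log2 fold changes of PSMA2 and PSMB5 were then -0.36 and -0.11.

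Among the catalytic subunits of the immunoproteasome, PSMB10 (ENSG00000205220), which takes the trypsin-like site in place of PSMB7, had the largest log2 fold change of the 47 genes. It was at 7.23, 7.86 and 8.22 CPM in LV-NC replicates 1, 2 and 3 and at 36.3, 38.7 and 41.1 CPM in LV-ATF7 replicates 1, 2 and 3. The groups lay far apart with a narrow spread in each, and the rise was 4.98-fold (log2 fold change 2.32 ± 0.12 (SE), adjusted p = 3.31e-06). PSMB10 lies on the minus strand of chromosome 16 (67934502 to 67937087, GRCh38), and 58.3% of its coding bases also belong to AC040162.1, a gene of the same strand, so reads from the pair may be divided or discarded by the counting.

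PSMB8 (ENSG00000204264), the inducible subunit with chymotrypsin-like activity, measured 46.2, 56.4 and 52.2 CPM in the LV-NC libraries and 158, 158 and 174 CPM in those labeled LV-ATF7. No library of one group came near the other, and the gene rose 3.16-fold (log2 fold change 1.66 ± 0.11, adjusted p = 7.98e-06). On the opposite strand PSMB8-AS1 covers 20.6% of its exon bases, and whether the counting used strand is not given in the sources used here. For PSMB9 (ENSG00000240065), which replaces PSMB6, the levels were 75.1, 87.4 and 82.5 CPM and 198, 198 and 206 CPM. Again the groups did not overlap, with a rise of 2.46-fold (log2 fold change 1.30 ± 0.09, adjusted p = 1.21e-05).

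Both PA28 cap genes were also higher in the libraries labeled LV-ATF7. PSME1, its α subunit, stood at 104, 142 and 135 CPM in the LV-NC libraries and at 284, 285 and 307 CPM in the others. The rise was 2.30-fold with no overlap (log2 fold change 1.20 ± 0.13, adjusted p = 8.88e-05). PSME2, its β subunit, was measured at 91.3, 121 and 115 CPM and 137, 138 and 139 CPM. All libraries labeled LV-ATF7 were higher than all LV-NC libraries, but by little: 1.26-fold (log2 fold change 0.34 ± 0.12, adjusted p = 0.032). That call was lost when the counts were scaled by library size alone (log2 fold change 0.18, adjusted p = 0.160), and without LV-NC replicate 3 or any one of the LV-ATF7 libraries (adjusted p from 0.0653 to 0.0886). The adjusted p for PSME2 ranged from 0.00102 to 0.160 over all alternatives, with the direction kept. The 2 genes are neighbors on chromosome 14, PSME1 on the plus strand from 24136158 to 24138967 and PSME2 on the minus strand from 24143362 to 24147570. Per kilobase of exon, PSME1 rose from 71.3 to 164 CPM and PSME2 from 30.5 to 38.5 CPM, so the PSME1 level was above that of its partner in both groups.

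**Figure D2:**
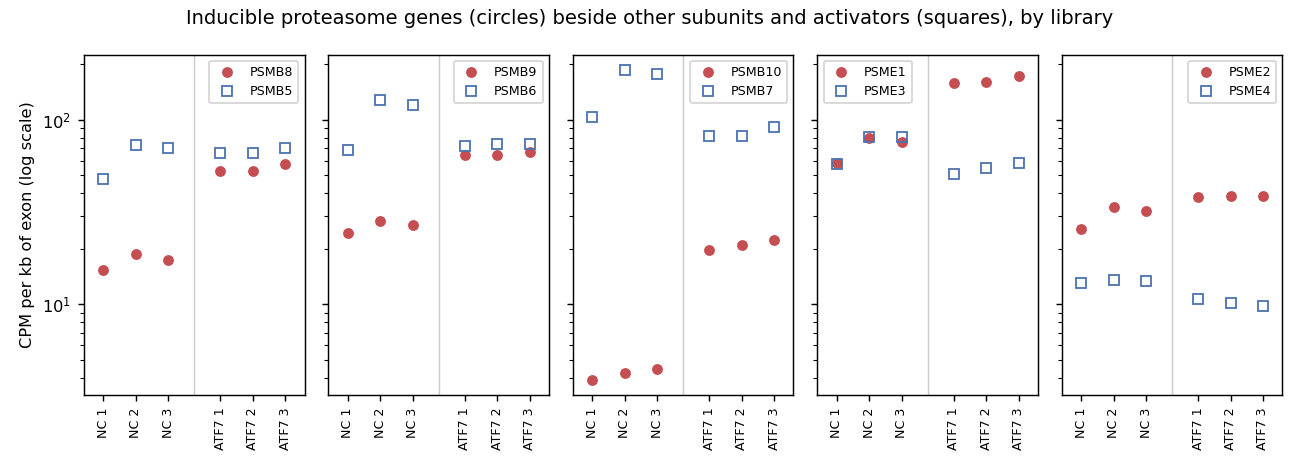
CPM per kilobase of exon (log axis) of the 5 immunoproteasome genes (filled circles) in each of the 6 libraries, each beside a constitutive catalytic subunit or another activator (open squares). By this measure, with all annotated exons counted once, PSMB8, PSMB9 and PSMB10 are below their constitutive counterparts in every library. The distance is less in the libraries labeled LV-ATF7. PSME1 is above PSME3 in those libraries and, slightly, in LV-NC replicate 1 (58.7 against 57.8), and below it in LV-NC replicates 2 and 3. Without the length correction, PSMB8 and PSMB9 counts exceed those of their counterparts in the libraries labeled LV-ATF7.

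The promoters of the genes that rose together were read from RefSeq (GRCh38.p14), as 250 bases before to 50 bases after the start of transcription, with 43 of the 49 genes matched. The motif GAAANNGAA, the repeat bound by interferon regulatory factors, was searched on both strands. It was found in the windows of PSMB10, PSME1 and PSME2, which is 3 of the 5 immunoproteasome genes, in 5 of the 36 other proteasome genes with a promoter, and in 8.29% of all 27305 promoters. In those 3 windows it had the same letters, GAAAGCGAA, a form held by 76 promoters in all (0.278%). Among the promoters of tested genes, 0.406% held this form. The only other proteasome gene with this form was PSMG4, an assembly factor that was also higher. The directions of the genes outside the proteasome that hold this form are not given here. Other forms of the repeat were in the windows of POMP, PSMC2, PSMA4 and PSMB4. Of these, POMP, PSMC2 and PSMA4 were lower (log2 fold changes of -1.24, -1.15 and -0.39), and PSMB4 (-0.41) did not pass the test. The repeat was therefore not confined to genes that rose. The form GAAAGCGAA was singled out after the matches were seen. A match describes the letters and is not a binding site. The windows are shown because they carry that shared form, which is in capitals; in PSME1 it reads on the opposite strand, as TTCGCTTTC.
PSMB10, chr16:67936801-67937100, minus strand: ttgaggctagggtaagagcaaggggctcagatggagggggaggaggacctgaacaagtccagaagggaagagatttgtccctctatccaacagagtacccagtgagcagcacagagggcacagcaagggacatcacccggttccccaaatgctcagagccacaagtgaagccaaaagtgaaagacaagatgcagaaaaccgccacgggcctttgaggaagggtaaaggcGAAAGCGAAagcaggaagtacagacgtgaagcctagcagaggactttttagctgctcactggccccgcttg
PSME1, chr14:24135944-24136243, plus strand: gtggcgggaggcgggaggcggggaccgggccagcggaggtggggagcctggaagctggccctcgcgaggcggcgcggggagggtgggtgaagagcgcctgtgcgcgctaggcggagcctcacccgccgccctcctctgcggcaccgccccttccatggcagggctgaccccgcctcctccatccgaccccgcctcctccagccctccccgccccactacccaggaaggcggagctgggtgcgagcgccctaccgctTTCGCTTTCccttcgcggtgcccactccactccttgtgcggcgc
PSME2, chr14:24146561-24146860, minus strand: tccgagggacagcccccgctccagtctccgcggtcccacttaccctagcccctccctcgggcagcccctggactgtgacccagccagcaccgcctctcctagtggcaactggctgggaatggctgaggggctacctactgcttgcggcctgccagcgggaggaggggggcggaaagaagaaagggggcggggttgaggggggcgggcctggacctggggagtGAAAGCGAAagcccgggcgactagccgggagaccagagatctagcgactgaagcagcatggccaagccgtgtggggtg
PSMG4, chr6:3258697-3258996, plus strand: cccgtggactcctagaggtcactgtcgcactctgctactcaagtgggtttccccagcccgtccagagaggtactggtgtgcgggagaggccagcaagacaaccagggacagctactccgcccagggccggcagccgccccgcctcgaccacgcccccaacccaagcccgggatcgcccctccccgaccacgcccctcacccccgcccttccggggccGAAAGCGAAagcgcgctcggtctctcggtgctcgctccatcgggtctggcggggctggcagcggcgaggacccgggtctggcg

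In these windows the first base of the match stood 21 bases before the start in PSMB10, 28 before it in PSME2, 33 before it in PSMG4 and 6 after it in PSME1. The windows of PSMB8 and PSMB9 held no match to the repeat within these 300 bases. Other motifs were searched in the same windows. The core of the antioxidant response element, TGACNNNGC, was in 3 of the 5 immunoproteasome windows, in 10 of the 36 others and in 13.6% of all promoters. CCAAT was in 1 of 5, in 17 of 36, in 35.7% of all and in 36.7% of those of tested genes. TTCNNNGAA, the core of the interferon-γ activated site, was in none of the 5 and in 4 of the 36. It was in 7.88% of all and in 6.28% of those of tested genes. TGACGTCA, the palindrome bound by CREB and ATF proteins, was in none of the 41 windows. It was in 1.98% of all promoters and in 3.29% of those of tested genes. None of these counts was tested, and overlaps between motifs were not removed.

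PSMB9 lies beside TAP1, the gene of the peptide transporter that carries proteasome products into the endoplasmic reticulum, in the MHC region of chromosome 6. TAP1 is on the minus strand (32845209 to 32853978), and its annotated start in GENCODE is inside the PSMB9 window. The window is shown for that position, with the antioxidant response core in capitals, read on the opposite strand.
PSMB9, chr6:32853942-32854241, plus strand: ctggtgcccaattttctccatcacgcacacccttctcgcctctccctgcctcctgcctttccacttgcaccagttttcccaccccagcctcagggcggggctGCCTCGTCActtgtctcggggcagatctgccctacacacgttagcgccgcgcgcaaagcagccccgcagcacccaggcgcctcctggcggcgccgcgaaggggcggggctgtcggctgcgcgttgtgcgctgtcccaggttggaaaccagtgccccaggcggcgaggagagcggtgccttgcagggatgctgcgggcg
While PSMB9 rose, TAP1 was lower: 274, 317 and 323 CPM in the LV-NC libraries and 196, 196 and 229 CPM in those labeled LV-ATF7. These groups did not overlap (log2 fold change -0.56 ± 0.11, adjusted p = 0.00228), so the neighbors moved in opposite directions. TAP1 was singled out after its values were seen.

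The constitutive catalytic subunits did not all move alike. PSMB5, the chymotrypsin-like subunit, had 84.6, 129 and 124 CPM in the LV-NC libraries and 116, 117 and 124 CPM in those labeled LV-ATF7. Its groups overlapped, replicate 1 of LV-NC being the lowest library and replicate 2 the highest, and its log2 fold change of 0.08 ± 0.16 did not pass the test (adjusted p = 0.67). The sign turned with library size scaling and with limma's quality weights, to -0.08 and -0.09, and without LV-NC replicate 1, to -0.11. PSMB6, with the caspase-like site, was at 99.3, 185 and 174 CPM and 105, 107 and 108 CPM. LV-NC replicate 1 lay below all libraries labeled LV-ATF7 and the other two above them, and the log2 fold change of -0.52 ± 0.21 did not pass (adjusted p = 0.0571). PSMB7, with the trypsin-like site, was at 185, 333 and 318 CPM and 146, 146 and 164 CPM. All LV-NC libraries were above all others, and PSMB7 was lower by a log2 fold change of -0.87 ± 0.21 (adjusted p = 0.00607).

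Each inducible subunit was then set against the constitutive one it replaces, within a library, as a ratio of counts that no scaling between libraries can alter. PSMB8 counts were 54.6%, 43.7% and 42.1% of PSMB5 counts in the LV-NC libraries and 136%, 135% and 140.3% in those labeled LV-ATF7. The mean log2 ratio went from -1.10 ± 0.20 (SD, n = 3) to 0.45 ± 0.030, a difference of 1.56, or 2.95-fold. PSMB9 counts were 75.6%, 47.3% and 47.4% of PSMB6 counts, and 189%, 185% and 192%. In log2 units this was -0.85 ± 0.39 and 0.92 ± 0.024, a difference of 1.77, or 3.41-fold. PSMB10 counts were 3.92%, 2.37% and 2.59% of PSMB7 counts, and 24.9%, 26.5% and 25.2%. The mean log2 ratios of -5.11 ± 0.39 and -1.97 ± 0.048 differed by 3.14, or 8.82-fold. No library of one group reached the range of the other for any of the 3 ratios. An exact two-sided permutation test gave p = 0.10 for each, the smallest that 3 libraries against 3 allow, and 0.10 after adjustment over the 3. Without LV-NC replicate 1, which had the highest of the LV-NC ratios in all 3 pairs, the differences were 1.67, 1.99 and 3.36.

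**Figure D3:**
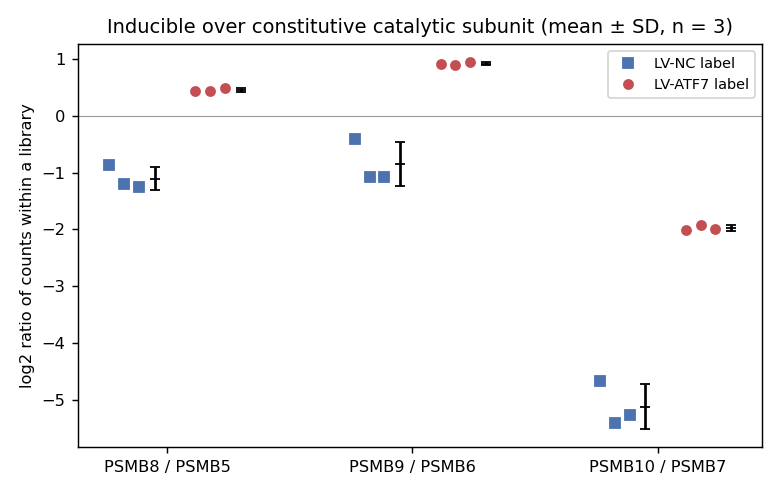
Log2 ratio of counts of an inducible catalytic subunit to its constitutive counterpart within each library, not corrected for gene length, for the libraries labeled LV-NC (squares) and LV-ATF7 (circles), with the mean and SD of 3 libraries in black. The circles lie above the squares in every pair, by 1.56, 1.77 and 3.14 log2 units between the means.

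Corrected for the length of all annotated exons, the inducible subunits approached the constitutive ones without passing them. Before this correction, counts of PSMB8 and PSMB9 were above those of PSMB5 and PSMB6 in the libraries labeled LV-ATF7. Per kilobase of exon, PSMB8 went from 17.2 to 54.4 CPM, and PSMB5 was at 63.8 and 67.4 CPM. PSMB9 went from 26.6 to 65.4 CPM, and PSMB6 was at 106 and 73.5 CPM. PSMB10 went from 4.19 to 20.9 CPM, and PSMB7 from 156 to 85.1 CPM. These lengths are of all annotated exons counted once, so a level per kilobase is low for a gene whose longer exons are not used in these cells. In the libraries labeled LV-ATF7, the order of PSMB8 and PSMB5, and of PSMB9 and PSMB6, therefore depends on the lengths used.

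Of the 7 α subunits, which form the outer rings and the gate of the core, 4 were lower and 3 did not pass the test. Their median log2 fold change was -0.50. Over all genes tested, 34.7% were called higher and 32.9% lower. These shares go with every structural group below, and no group was tested against them. The lowest value was that of PSMA1, at 14.3, 14.5 and 17.5 CPM in the LV-NC libraries and 6.64, 7.54 and 7.24 CPM in those labeled LV-ATF7. Every library of the second group lay below the first (log2 fold change -1.11 ± 0.15, adjusted p = 2.89e-04). PSMA6 was at 8.14, 4.98 and 4.63 CPM and 3.68, 3.67 and 3.48 CPM, with the highest level in LV-NC replicate 1 and no overlap (log2 fold change -0.71 ± 0.25, adjusted p = 0.0323). Without that library the PSMA6 value was -0.43 (adjusted p = 0.0389), and the call was lost without any one of the LV-ATF7 libraries (adjusted p from 0.0826 to 0.0999). PSMA3 (-0.59) and PSMA4 (-0.39) were the other 2 called, and PSMA2 (-0.50), PSMA5 (-0.22) and PSMA7 (-0.47) were not.

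Among the 7 constitutive β subunits the median log2 fold change was -0.69, with 4 lower and 3 not passing the test. PSMB3, a structural subunit without a catalytic site, was measured at 117, 239 and 224 CPM in the LV-NC libraries and 101, 98.4 and 118 CPM in the others. LV-NC replicate 1 was just below the highest of the libraries labeled LV-ATF7, and the gene was called lower (log2 fold change -0.87 ± 0.25, adjusted p = 0.0136). PSMB1 and PSMB2 were lower with no overlap, at log2 fold changes of -0.77 and -0.69. PSMB4, at -0.41, did not pass the test and its groups overlapped.

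Of the 9 genes of the base of the regulatory particle with a symbol in the rule, 8 were lower. Among all genes tested, 32.9% were called lower. In the ATPase ring, which unfolds substrates, 5 of 6 genes were lower with a median log2 fold change of -0.83, and PSMC5 at -0.42 was not called. PSMC2 fell most of these, from 112, 179.8 and 169 CPM in the LV-NC libraries to 71.95, 68.6 and 68.0 CPM. The groups were well apart, LV-NC replicate 1 being the nearest to the other group (log2 fold change -1.15 ± 0.17, adjusted p = 5.29e-04). PSMC1, at -0.98, shares 75.8% of its exon bases with NRDE2 on the opposite strand and has 13 annotated pseudogenes of its name, so its value is uncertain.

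The 3 base subunits outside the ATPase ring with a symbol in the rule were all lower, with a median of -0.96. PSMD2, a scaffold that docks ubiquitin shuttles, had the largest fall of the 47 genes. It measured 562, 1057 and 1043 CPM in the LV-NC libraries and 343, 341 and 377 CPM in those labeled LV-ATF7. LV-NC replicate 1 lay between its partners and the other group, and the fold was 0.398 (log2 fold change -1.33 ± 0.23, adjusted p = 0.00115, -1.59 without LV-NC replicate 1). PSMD1, the neighboring scaffold, and PSMD4, a ubiquitin receptor, were at -0.96 and -0.63, with no overlap for either.

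The lid, which removes ubiquitin from the substrate, had 7 of the 8 genes with a symbol in the rule lower and a median of -0.68. PSMD14, the deubiquitinase of the lid, was at 89.6, 139 and 125 CPM in the LV-NC libraries and 60.3, 51.4 and 53.5 CPM in those labeled LV-ATF7. No library crossed over, and the log2 fold change was -1.10 ± 0.17 (adjusted p = 5.68e-04). PSMD3, a structural subunit, was at 369.6, 644 and 646 CPM and 256, 264 and 283 CPM. Its groups stayed apart as well (log2 fold change -1.04 ± 0.21, adjusted p = 0.00232). PSMD6, PSMD7, PSMD8, PSMD11 and PSMD12 were lower with no overlap, at log2 fold changes from -0.43 to -0.88. PSMD13, at -0.49, was not called, and its LV-NC replicate 1 was below all libraries labeled LV-ATF7.

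The activators and the inhibitor outside the immunoproteasome had small log2 fold changes. PSME3, the PA28γ cap found in the nucleus, was at 298, 414 and 416 CPM in the LV-NC libraries and 262, 283 and 301 CPM in the others. LV-NC replicate 1 lay inside the range of the other group, and the log2 fold change was -0.42 ± 0.14 (adjusted p = 0.032). PSME4, the PA200 cap, was at 134, 138 and 137 CPM and 109.6, 104 and 101 CPM, with each group tight and the groups apart (log2 fold change -0.38 ± 0.08, adjusted p = 0.00377). PSMF1, an inhibitor of the core in the test tube, was at 162, 169 and 173 CPM and 138, 139 and 157 CPM. It did not overlap, but a log2 fold change of -0.21 ± 0.09 did not pass the test (adjusted p = 0.0644).

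The assembly factors of the core moved in both directions. POMP, the chaperone that helps β subunits join and is degraded when the core is complete, was at 104, 175 and 172 CPM in the LV-NC libraries and 66.4, 64.3 and 60.5 CPM in those labeled LV-ATF7. It was lower in every library labeled LV-ATF7 and among the lowest log2 fold changes of the 47 (-1.24 ± 0.19, adjusted p = 6.47e-04, -1.46 without LV-NC replicate 1). PSMG1 to PSMG4 act as pairs that build the α ring. PSMG4 was at 23.0, 21.3 and 20.8 CPM and 41.8, 38.0 and 40.8 CPM, higher in every library labeled LV-ATF7 (log2 fold change 0.89 ± 0.10, adjusted p = 1.34e-04). Its partner PSMG3 was at 34.2, 31.0 and 30.6 CPM and 38.0, 39.0 and 46.1 CPM, again without overlap (log2 fold change 0.36 ± 0.11, adjusted p = 0.0224). The PSMG3 call was lost with library size scaling (0.19, adjusted p = 0.172) and without any one of LV-NC replicate 2, LV-NC replicate 3 and LV-ATF7 replicate 3 (adjusted p from 0.0700 to 0.106). The other pair did not pass the test. PSMG1 had 21.4, 32.2 and 30.7 CPM and 22.9, 25.5 and 27.0 CPM, and PSMG2 had 28.3, 42.6 and 37.5 CPM and 29.9, 31.2 and 29.2 CPM. LV-NC replicate 1 was below all the libraries labeled LV-ATF7 for both, at log2 fold changes of -0.16 ± 0.17 (adjusted p = 0.422) and -0.26 ± 0.15 (adjusted p = 0.162).

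The 3 chaperones of the ATPase ring with a symbol in the rule were split too, and are named here after their values were seen. PSMD9 had 2.73, 3.15 and 2.66 CPM and 4.41, 6.32 and 5.86 CPM, the latter all higher (log2 fold change 0.96 ± 0.21, adjusted p = 0.00364). PSMD10, also known as gankyrin, had 86.4, 87.1 and 81.3 CPM and 58.3, 53.0 and 50.4 CPM, the latter all lower (log2 fold change -0.66 ± 0.10, adjusted p = 4.61e-04). PSMD5 was lower, at 81.3, 73.4 and 71.4 CPM and 65.2, 59.3 and 55.9 CPM (log2 fold change -0.33 ± 0.10, adjusted p = 0.0214). In none of these 3 genes was LV-NC replicate 1 the lowest of its group. Another chaperone of this ring, PAAF1, which the symbol rule does not take in, rose from 20.9, 22.1 and 21.5 CPM to 39.9, 40.1 and 46.8 CPM (log2 fold change 0.97 ± 0.11, adjusted p = 1.15e-04).

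Outside the proteasome parts, PSMC3IP, a meiotic recombination factor, was at 5.30, 8.81 and 8.97 CPM in the LV-NC libraries and 3.57, 3.21 and 3.93 CPM in the others (log2 fold change -1.11 ± 0.24, adjusted p = 0.00373). PSME3IP1, which binds PSME3, was at 88.5, 96.8 and 94.2 CPM and 120.4, 119 and 116 CPM (log2 fold change 0.34 ± 0.08, adjusted p = 0.00684). Neither overlapped between groups.

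The position of LV-NC replicate 1 recurred in most of these values. It was the lowest of the 3 LV-NC libraries for 40 of the 47 proteasome genes (85.1%), compared with 43.9% of all genes tested. Its level was 68.1% of the mean of replicates 2 and 3 at the median of the 42 other genes, 85.0% at the median of the 5 immunoproteasome genes and 100.5% at the median of all genes. The 49 genes together took 0.581% of the counts in LV-NC replicate 1, 0.876% and 0.837% in replicates 2 and 3, and 0.483% to 0.489% in the libraries labeled LV-ATF7. Of the 42 other genes, 24 had LV-NC replicate 1 below its partners and above every library labeled LV-ATF7, 9 had it below all 5 other libraries, 2 had it within the range of the libraries labeled LV-ATF7, and 7 did not have it lowest in its group. For all 5 immunoproteasome genes it was the lowest of the 6 libraries. With the log2 level of each gene centered on its mean over the 6 libraries, the median of the 42 genes was -0.12 in LV-NC replicate 1, 0.52 and 0.44 in replicates 2 and 3, and -0.26 to -0.31 in the libraries labeled LV-ATF7. The median of the 5 was -0.88, -0.55 and -0.63 in the LV-NC libraries and 0.63 to 0.69 in the others. What set replicate 1 apart was not tested.

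**Figure D4:**
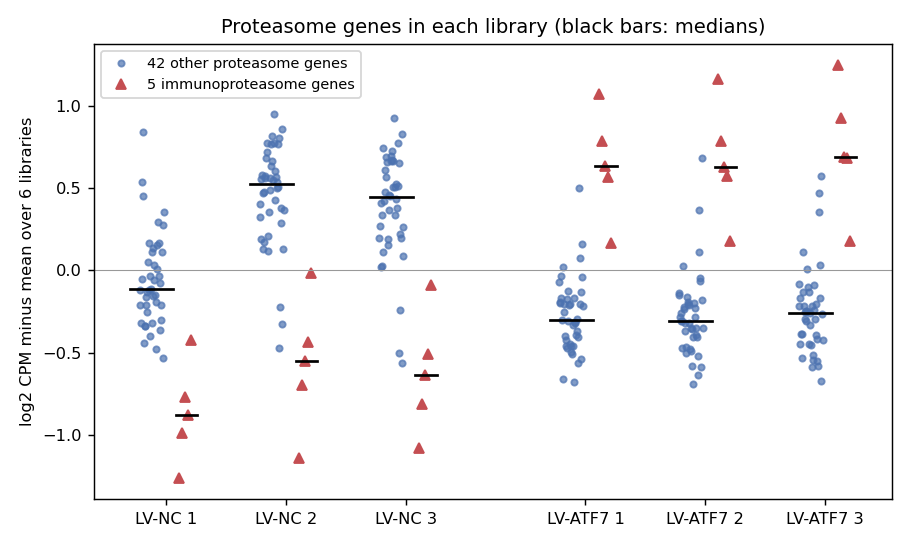
Log2 CPM of each proteasome gene minus its mean over the 6 libraries, per library (blue circles, the 42 other genes; red triangles, the 5 immunoproteasome genes; black bars, medians). The median circle of LV-NC replicate 1, at -0.12, lies between the medians of its partners, at 0.52 and 0.44, and those of the libraries labeled LV-ATF7, while its triangles have the lowest median, -0.88.

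Some proteasome genes had levels per kilobase well below those of partners that are built into the same particle in equal numbers. The 5 genes that share more than 50% of their coding bases with another annotated gene, PSMA1, PSMA2, PSMA6, PSMB10 and PSMD9, all lay between 1.38 and 41.1 CPM. PSMA2 shares 97.1% of its coding bases, PSMA1 88.6%, PSMA6 70.4% and PSMD9 58.7%, each at least in part with a gene of the same strand. Per kilobase of exon PSMA2 and PSMA6 were at 0.424 and 0.909 CPM in the LV-NC libraries, compared with 192 CPM for PSMA7 in the same ring. How reads in shared exons were counted is not given in the sources used here, so the levels of these 5 genes are uncertain, and its part in their fold changes was not tested. An alternative chosen after seeing the data left out the genes that share more than 10% of their exon bases. It kept 32 of the 42 other genes, of which 23 were lower, 1 was higher and 8 were not called. Their median was -0.65. Over all genes tested, with no such rule applied, 34.7% were called higher and 32.9% lower. Of the 3 other genes called higher, PSMD9 and PSMG4 were left out by the rule and PSMG3 remained. PSMB9, PSME1 and PSME2 were then the immunoproteasome genes left, and all 3 were higher.

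Genes that work beside the proteasome were counted from lists of 85 tested genes, of which 26 were higher, 35 lower and 24 not called. Without LV-NC replicate 1, 28 were higher and 45 lower. Over all genes tested, 34.7% were called higher and 32.9% lower, and without that library 39.9% and 40.2%. These shares go with every list below, and no list was tested against them. Of 21 proteins that bind the proteasome, 7 were higher, 8 lower and 6 not called, with a median log2 fold change of -0.17, and without LV-NC replicate 1, 7 were higher and 11 lower. ADRM1, a ubiquitin receptor of the base, was at 73.1, 135 and 128 CPM in the LV-NC libraries and 62.9, 57.2 and 62.6 CPM in those labeled LV-ATF7. Like most subunits it was lower, with LV-NC replicate 1 nearest to the other group (log2 fold change -0.88 ± 0.21, adjusted p = 0.00683). SEM1, the smallest lid subunit, was at 118, 179 and 160.2 CPM and 103, 92.2 and 94.0 CPM, also lower without overlap (-0.66 ± 0.15, adjusted p = 0.00555). At the low end of the list, PITHD1 was at 93.1, 100.5 and 103 CPM and 36.1, 37.6 and 42.7 CPM (-1.35). At the high end, UBQLN4, a ubiquitin shuttle, was at 62.5, 55.3 and 55.5 CPM and 121, 124 and 146 CPM (1.17). Neither overlapped.

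Of 15 regulators of proteasome genes, 2 were higher, 8 lower and 5 not called, with a median of -0.48, and without LV-NC replicate 1, 2 were higher and 10 lower. The list was not split by whether a factor raises or lowers proteasome genes, so its counts do not give a direction of regulation. NFE2L1, the factor that raises proteasome gene expression when proteasome activity falls, was at 907, 816 and 858 CPM and 680.1, 666 and 709 CPM. Each library labeled LV-ATF7 was lower than each LV-NC library (log2 fold change -0.33 ± 0.09, adjusted p = 0.0144). The NFE2L1 call was lost without LV-ATF7 replicate 1 or 2 (adjusted p = 0.0581 and 0.0803). NFE2L2, the factor of the oxidative stress response, was at 106, 125 and 126 CPM and 153, 145 and 123 CPM. Its groups overlapped and it did not pass the test (0.24 ± 0.12, adjusted p = 0.108), though it did with limma's quality weights (adjusted p = 0.0063) and without LV-ATF7 replicate 3 (adjusted p = 0.0462). SYVN1, an E3 ligase of the endoplasmic reticulum, had the largest fall, from 274, 307 and 303 CPM to 122, 124 and 137 CPM (-1.21). HSF1, the heat shock factor, had the largest rise, from 134, 128 and 129 CPM to 193, 197 and 218 CPM (0.64), and neither gene overlapped between groups.

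Among 19 genes of ubiquitin, its activation and the delivery of substrates, 2 were higher, 8 lower and 9 not called, with a median of -0.27. Without LV-NC replicate 1, 3 were higher and 12 lower, and the median was -0.39. SQSTM1, an autophagy receptor for ubiquitin, was at 513, 1252 and 1256 CPM and 446, 461 and 502 CPM (-1.10), with LV-NC replicate 1 close above the other group. RPS27A, which encodes ubiquitin fused to a ribosomal protein, was at 268, 219 and 189 CPM and 509, 503 and 529 CPM (1.19), without overlap. All 16 antigen processing genes were called, 9 as higher and 7 as lower, the counts also found without LV-NC replicate 1, with a median of 0.44. HLA-F, an MHC class I gene, was at 23.6, 20.7 and 17.8 CPM and 69.8, 74.6 and 86.0 CPM, without overlap (1.89 ± 0.14, adjusted p = 1.38e-05). It shares 41.8% of its coding bases with exons annotated on the opposite strand. CALR, a chaperone of class I loading, was at 628, 1182 and 1147 CPM and 404, 393 and 419.6 CPM, also without overlap (-1.28 ± 0.22, adjusted p = 0.00127). The list thus held genes that moved with the immunoproteasome genes and genes that moved against them, TAP1 among the latter.

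Of 14 genes of interferon signaling, 6 were higher, 4 lower and 4 not called, with a median of 0.30, and 7 were higher and 5 lower without LV-NC replicate 1. IFNGR1, a chain of the interferon-γ receptor, had the largest rise, from 116, 98.9 and 91.5 CPM to 352, 334 and 302 CPM (1.69). SOCS1, an inhibitor of the pathway, had the largest fall, from 9.21, 15.99 and 15.05 CPM to 3.91, 3.98 and 5.14 CPM (-1.63). No library of either gene crossed over. The list moved in both directions. JAK1, JAK2 and SOCS3 were also called lower, and IFNGR2, IRF2, IRF9 and TYK2 were also called higher. IRF1, which binds the repeat searched above, was at 92.5, 115 and 117 CPM in the LV-NC libraries and 297, 307 and 339 CPM in those labeled LV-ATF7. It was higher in all of the latter (log2 fold change 1.54 ± 0.12, adjusted p = 1.84e-05). Of its coding bases, 59.5% are shared with exons annotated on the opposite strand, so its level is uncertain if the counting ignored strand. IRF1 was singled out after its values were seen. Whether it has any part in the levels of the proteasome genes was not tested.

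**Figure D5:**
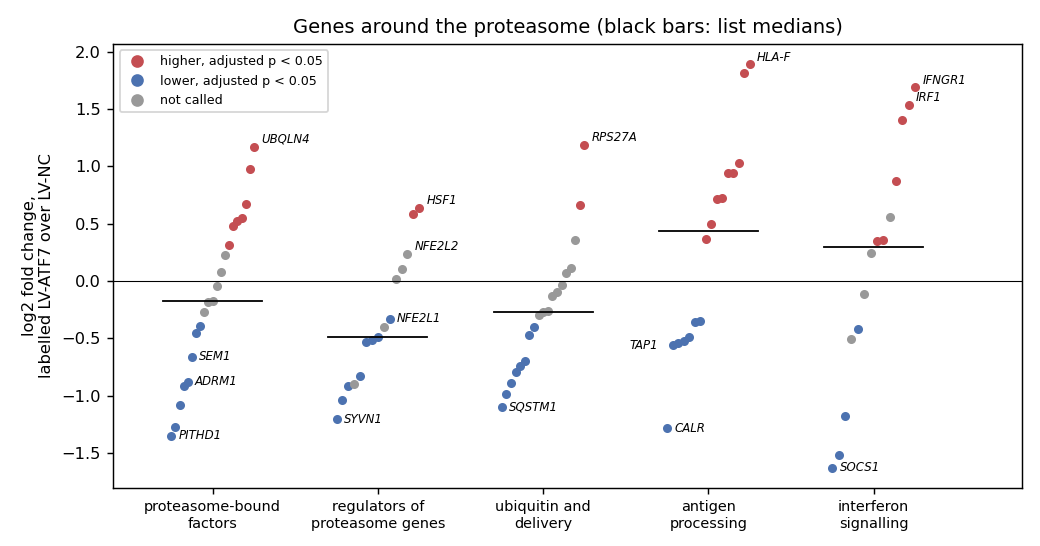
Log2 fold change, libraries labeled LV-ATF7 over LV-NC (n = 3 per group), of the 85 tested genes of the 5 lists around the proteasome, with list medians as black bars. Medians run from -0.48 for the regulators to 0.44 for antigen processing, whose genes all passed the test, 9 above 0 and 7 below.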

How the data were processed

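Poly(A) RNA of 6 HaCaT libraries was sequenced. Raw counts of reads on each gene and FPKM values were deposited by the authors. Their table also holds a fold change and p-values for the same contrast, which were not used. The genome build in the submitters' processing notes is GRCh38, and the counting program, its strandedness and its handling of shared exons are not given in the sources used here. Deposited FPKM served only to recompute the ratios.

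After filterByExpr, which kept 12462 genes, and TMM scaling, the counts were compared between the labeled groups by edgeR's quasi-likelihood test (glmQLFTest, version 4.0.16, in R 4.3.3), with Benjamini-Hochberg adjustment over all of them. A call is an adjusted p under 0.05. CPM are TMM-scaled, the mean is over 3 libraries, and the SE of a log2 fold change is its size over the square root of F. Totals of 16686472 to 20562768 counts leave counting error small except for genes of a few CPM. The script was tested on simulated data. Ratios used a pseudocount of 0.5 and an exact permutation test. Positions and shared exons are from GENCODE release 29, and promoters from RefSeq (GRCh38.p14), with motifs chosen after expression values were seen.

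Replicates differed by more than sampling noise (chi-square per gene from 2.84 to 74.6), so each library counted once. Same-numbered libraries did not deviate together (correlations of 0.058, -0.021 and 0.065), so the replicate block was an alternative. Others were DESeq2 1.42.0, limma 3.58.1 with quality weights, other scalings and filters, each library left out, and a fold change of at least 1.5. Members and lists were chosen with earlier results of these data known. Values per library are given for the immunoproteasome genes, their constitutive counterparts, core assembly factors, activators and inhibitor, up to 2 called genes at each end of each structural group, and the ends of each list with ADRM1, SEM1, NFE2L1 and NFE2L2. PSMA8, PSMB11 and 9 cell type markers were not analyzed here, nor were the study's other experiments. The values of 1 gene of the interferon list are not reported here.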

Additional observations from a re-analysis of the deposited data

How the results depend on the processing

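Of the 36 proteasome genes called, 4 of the 5 immunoproteasome genes (not PSME2) and 19 of the 31 others kept their call under all 14 alternatives. Those 12 of the 31 that lost it under at least 1 were PSMA3, PSMA4, PSMA6, PSMB2, PSMB3, PSMC3, PSMD4, PSMD5, PSMD7, PSMD11, PSME3 and PSMG3, whose highest adjusted p ran from 0.0520 to 0.172. Of the 47 genes, 10, 8 and 11 lost their call without LV-ATF7 replicate 1, 2 or 3, and 0, 4 and 5 without LV-NC replicate 1, 2 or 3. Of the 11 genes not called, PSMA2 and PSMB5 passed under none. The number called was 36 with the replicate block, which changed no call among the 47 genes. It was 39 with DESeq2, 42 with library size scaling, 45 with limma's quality weights, and 26 to 45 with 1 library left out. The last 45 came without LV-NC replicate 1, a fit in which 39.9% of all genes were called higher and 40.2% lower. In the main fit these shares were 34.7% and 32.9%. Shares over all genes under the other fits are not given here, so the counts are not compared with them. Library size scaling shifted the log2 fold changes of all genes by -0.16 at the median. PSMB5 changed sign with library size scaling (-0.0792), with quality weights (-0.0911) and without LV-NC replicate 1 (-0.1101). Leaving out 1 library at a time gave PSMB5 values from -0.1101 to 0.1569. Of the list genes, 61 were called, and 37 when 1.5-fold was also required. By the latter rule 28.2% of all genes were higher and 24.6% lower. With genes sharing at most 10% of exon bases, 3 immunoproteasome genes were called, since the other two are left out by construction. The ratios differed by 1.49 to 1.67 (PSMB8 to PSMB5), 1.66 to 1.99 (PSMB9 to PSMB6) and 2.999 to 3.36 (PSMB10 to PSMB7) over 9 alternatives. Paired by replicate number, the smallest p of the ratio test was 0.25. Depth limits PSMA2 most, at 1.38 to 2.73 CPM.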
